A study of Mus musculus with 6 samples.

Results

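The filaggrin family, loricrin, involucrin, corneodesmosin and enzymes of the cornified envelope were measured in whole back skin of mice given imiquimod cream or vehicle cream. The set held 10 genes, Flg, Flg2, Hrnr, Rptn, Lor, Ivl, Casp14, Tgm1, Tgm3 and Cdsn, and a gene was taken as measured when a record on the array carried its name. By that rule 9 of the 10 genes were on the array, with 10 array sequences between them (2 for Hrnr and 1 for each of the others), among 17772 genes tested. No record was named Flg. The mice were females of the inbred strain C57BL/6J, aged 6 to 8 weeks. In the treated group the shaved back received 62.5 mg of cream with 5% imiquimod, a Tlr7 agonist used to raise psoriasis-like skin inflammation in mice, each day for 7 days. The control group received the same daily dose of vehicle cream on the shaved back. Each group had 3 samples, hybridised 1 to an array (Agilent mouse arrays read in a single colour), and the labels do not say whether each sample came from a separate animal. What the p-values reflect is therefore the variation among these samples, part of which could be technical.

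The records did not assign the arrays in 1 way. In all 6 scanner files the treatment word in the name was the reverse of the group of the sample they were filed under. The columns of the authors' deposited value table, read by sample title, matched the scanner file with the same treatment word and number (Spearman 0.9999997 to 1.0000000 over 24244 probes), against 0.943 to 0.953 for the column of the sample that each file was filed under. Arrays were grouped here by the word in the file name and are called imiquimod and vehicle arrays in that sense. Read by filing, every difference given here would change its sign. The arrays had a 75th percentile of signal of 861 to 1106, and 61.2% to 67.3% of their probes were well above background. Pearson correlations were 0.992 among imiquimod arrays, 0.960 to 0.983 among vehicle arrays and 0.942 to 0.954 between the groups. The extraction software marked vehicle arrays 2 and 3 for evaluation. The net signal of their negative controls was 40.9 and 45.2, against 31.7 to 37.6 on the other arrays. Imiquimod array 1 and the vehicle arrays shared slide 1, and imiquimod arrays 2 and 3 were on slide 2.

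In the outermost layers of the epidermis, keratinocytes replace their membrane with a cornified envelope, a shell of proteins that transglutaminases cross-link to each other. Loricrin and involucrin are building blocks of that shell, whereas filaggrin is released from a long repetitive precursor, packs keratin filaments together and is then broken down to amino acids that hold water in the skin. Filaggrin, filaggrin-2, hornerin, repetin and trichohyalin are fused-type S100 proteins, encoded side by side in the epidermal differentiation complex on mouse chromosome 3, where loricrin and involucrin also lie.

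The fused-type genes Flg2, Flg, Hrnr and Rptn are shown by the 250 bases before their RefSeq transcription start (GRCm38.p6, plus strand, 5′ to 3′). They are neighbours, and of them Flg2 and Rptn gave opposite differences between the treatments. Capitals mark matches, on either strand, to the AP-1 motif TGANTCA, the Grainyhead motif AACCNGTT, the TATA box TATAAA and the Klf motif GGGNGNGG, and no capitals overlap here. The windows are chr3:93197023-93197272 for Flg2, chr3:93273296-93273545 for Flg, chr3:93319499-93319748 for Hrnr and chr3:93393449-93393698 for Rptn.
Flg2: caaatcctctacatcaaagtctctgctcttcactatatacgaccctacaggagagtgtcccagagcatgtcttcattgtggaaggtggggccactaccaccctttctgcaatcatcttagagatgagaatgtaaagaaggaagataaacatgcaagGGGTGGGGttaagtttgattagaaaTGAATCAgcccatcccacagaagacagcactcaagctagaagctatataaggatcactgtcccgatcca
Flg: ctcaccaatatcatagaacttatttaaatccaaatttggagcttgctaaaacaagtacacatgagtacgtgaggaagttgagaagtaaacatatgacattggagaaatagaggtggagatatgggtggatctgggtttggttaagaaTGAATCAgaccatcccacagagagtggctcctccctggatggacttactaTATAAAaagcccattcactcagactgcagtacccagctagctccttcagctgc
Hrnr: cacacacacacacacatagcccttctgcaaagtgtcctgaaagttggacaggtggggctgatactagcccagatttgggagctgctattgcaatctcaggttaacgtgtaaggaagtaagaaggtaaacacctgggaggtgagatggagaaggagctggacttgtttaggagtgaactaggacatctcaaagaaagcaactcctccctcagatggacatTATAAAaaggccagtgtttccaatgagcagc
Rptn: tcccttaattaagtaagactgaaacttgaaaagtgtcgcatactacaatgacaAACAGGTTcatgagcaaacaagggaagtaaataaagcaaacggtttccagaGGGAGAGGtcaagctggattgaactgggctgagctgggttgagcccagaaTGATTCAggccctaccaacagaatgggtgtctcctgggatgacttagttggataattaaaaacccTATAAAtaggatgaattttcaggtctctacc

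An AP-1 match lay 69 bases before the start of Flg2, 103 before that of Flg and 96 before that of Rptn, and the Hrnr window had none. The exact TATA box string matched 53 bases before the start of Flg, 31 before that of Hrnr and 31 before that of Rptn. Near matches, such as tataag in the Flg2 window, were not counted. Only Rptn among the 10 genes had a Grainyhead match, at 197 bases. The Klf motif matched at 94 bases in Flg2 and at 146 in Rptn. The longest run of letters shared by the Flg2 and Flg windows was 12 bases, ccatcccacaga, just after the AP-1 match in both, whereas the other pairs of these 4 windows shared runs of 7 to 9 bases. Over all 10 genes, 5 had an AP-1 match, with Lor at 48 bases and Ivl at 116, and of all 32851 promoter windows of the same length 6.7% had one. The TATA box was in 6 of the 10 genes, against 12.4% of all windows, the Klf motif in 7 of 10, against 45.9%, and the Grainyhead motif in 1 of 10, against 1.8%. Tgm1 and Cdsn had 2 windows each. AP-1 matches stood before a gene that fell (Flg2), a gene that rose (Rptn) and genes that did not pass the test (Lor and Ivl).

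The arrays read these genes through sequences of 60 bases. Those of Flg2, which fell, Tgm3, which rose, and Ivl, which did not pass the test, are given as the array files list them, with no letters in capitals.
Flg2: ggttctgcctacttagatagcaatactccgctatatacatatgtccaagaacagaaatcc
Tgm3: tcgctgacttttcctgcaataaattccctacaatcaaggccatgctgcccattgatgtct
Ivl: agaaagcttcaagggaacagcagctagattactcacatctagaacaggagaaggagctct

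These array sequences lie at chr3:93024641-93024700 on the plus strand for Flg2, chr2:129874069-129874128 on the plus strand for Tgm3 and chr3:92375367-92375426 on the minus strand for Ivl, in mm9, the build of the array files. The mm9 and GRCm38.p6 positions cannot be set against each other. Exons and untranslated regions in mm9 were not analysed here.

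In skin of imiquimod arrays, Flg2 was 47.3-fold lower than on vehicle arrays, whereas Rptn was 24.6-fold higher, Tgm3 4.91-fold, Casp14 3.69-fold and Tgm1 1.70-fold higher. Hrnr, Lor, Ivl and Cdsn did not pass the test. The test was limma's moderated test, fitted on log2 signal relative to the array's 75th percentile, two-sided, with a Benjamini-Hochberg adjusted p of 0.05 over all 17772 genes as the threshold. Of the 9 measured genes 4 were higher and 1 was lower, while among all genes tested 13.1% were higher and 10.5% were lower. With the slide as a block, which rests each difference on imiquimod array 1, 0 of the 9 were higher. Without any 1 imiquimod array or without vehicle array 1 only Rptn was higher. Flg2 remained lower in each of these fits. In 5 of the 9 the imiquimod and vehicle arrays did not overlap, against 46.6% of all genes. The median difference of the 9 genes was 0.34 on the log2 scale, against 0.02 over all genes, and the median size of a difference was 0.76, against 0.34. All 10 array sequences were well above background on all 6 arrays. In whole skin, fewer cells of a type and less RNA per cell cannot be told apart.

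**Figure D1:**
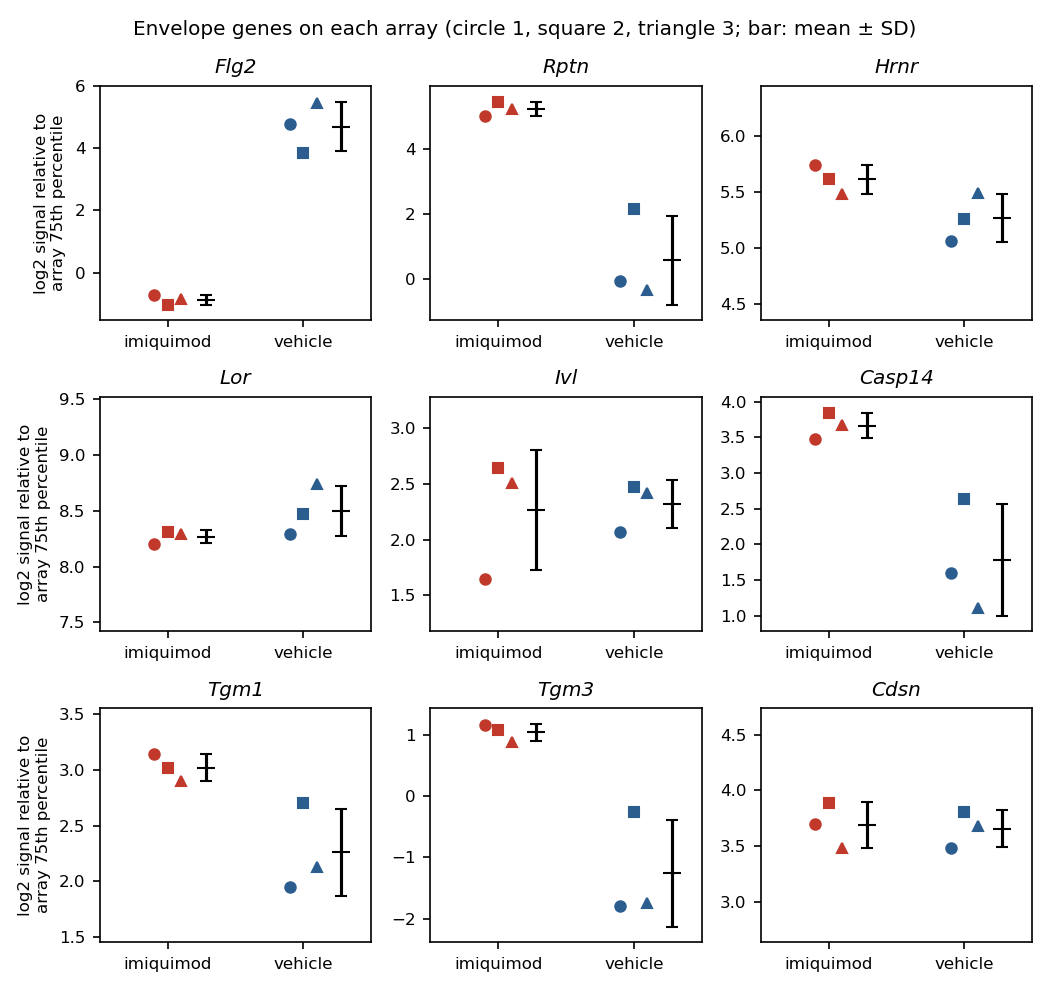
Log2 signal relative to the array's 75th percentile for the 9 measured genes, 1 panel a gene with its own vertical scale, imiquimod arrays left of vehicle arrays; circles, squares and triangles are arrays 1, 2 and 3 of a group and the bar is the mean ± SD (n = 3). Flg2 lies between -1.03 and -0.71 on imiquimod arrays and between 3.86 and 5.45 on vehicle arrays, while Rptn, Tgm3, Casp14 and Tgm1 are above every vehicle array, and vehicle array 2 is the vehicle array nearest to the imiquimod arrays in these 5 genes.

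Flg2 encodes filaggrin-2, a histidine-rich relative of filaggrin in the upper epidermis. Its log2 signal relative to the 75th percentile was -0.71, -1.03 and -0.86 on imiquimod arrays 1 to 3, against 4.78, 3.86 and 5.45 on vehicle arrays 1 to 3. The imiquimod arrays all lay low and close together, the vehicle arrays all lay high, and 4.57 log2 units separated the groups. The mean was -0.86 ± 0.16 on imiquimod arrays and 4.70 ± 0.80 on vehicle arrays (SD, n = 3 each). In the limma fit the log2 difference was -5.56 (SE 0.40, 95% interval -6.53 to -4.59, adjusted p = 0.00166), and the interval of the fold ran from 24.2 to 92.6. Flg2 ranked 85 from the lowest among the 17772 differences. Within slide 1, where 1 imiquimod array met the 3 vehicle arrays, the difference was -5.41. With the slide as a block the difference was the same by design, since slide 2 held imiquimod arrays only (limma adjusted p = 0.0219). Both differences rest on imiquimod array 1.

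Rptn encodes repetin, a fused-type protein of the cornified envelope. Its array sequence lies at chr3:93202664-93202723 (mm9, plus strand). The log2 signal was 4.99, 5.44 and 5.21 on imiquimod arrays, against -0.05, 2.15 and -0.34 on vehicle arrays. All imiquimod arrays were at least 2.84 log2 units above the highest vehicle array, array 2, which itself stood well above the other two. Means were 5.21 ± 0.23 on imiquimod arrays and 0.59 ± 1.36 on vehicle arrays (SD, n = 3 each). The log2 difference was 4.62 (SE 0.66, 95% interval 3.01 to 6.24, adjusted p = 0.00774 in limma), or 24.6-fold with an interval of 8.05 to 75.3. Rptn ranked 67 from the highest. With the slide as a block the Rptn difference was 4.40 and did not pass (limma adjusted p = 0.0777). By design this is also the difference within slide 1, and it rests on imiquimod array 1.

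Hrnr encodes hornerin, another repeat-rich filaggrin relative, and was read by 2 array sequences. At chr3:93137281-93137340 (mm9, plus strand) its log2 signal was 5.74, 5.62 and 5.48 on imiquimod arrays, against 5.06, 5.26 and 5.49 on vehicle arrays. The groups touched, since vehicle array 3 was slightly above imiquimod array 3, and the log2 difference of 0.34 did not pass (SE 0.15, 95% interval -0.02 to 0.71, adjusted p = 0.147 in limma). At chr3:93136509-93136568 the signal was 3.33, 3.17 and 2.93 on imiquimod arrays, against 2.48, 2.96 and 3.12 on vehicle arrays. That sequence gave 0.29 (SE 0.20, 95% interval -0.21 to 0.79), which did not pass in the fit over 27408 probes (limma adjusted p = 0.348). Neither Hrnr sequence was called, and 21.2% of all tested probes were. Both intervals exclude a rise of the size seen in Rptn.

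Filaggrin itself could be read only through records outside the naming rule. Array records ENSMUST00000180308 and ENSMUST00000050758 carry descriptions that name filaggrin, and another such record was well above background on 0 arrays. At chr3:93083694-93083753 (mm9), ENSMUST00000180308 had a log2 signal of 7.05, 7.02 and 7.13 on imiquimod arrays, against 6.00, 6.46 and 6.02 on vehicle arrays. These groups did not overlap, and the difference of 0.91 passed (SE 0.15, 95% interval 0.53 to 1.28, limma adjusted p = 0.0124, 1.87-fold). At chr3:93097060-93097119, ENSMUST00000050758 had 6.39, 6.56 and 6.21 on imiquimod arrays, against 5.59, 6.22 and 5.60 on vehicle arrays. There vehicle array 2 reached the lowest imiquimod array, and the difference of 0.58 did not pass (SE 0.21, 95% interval 0.07 to 1.09, limma adjusted p = 0.0945). Whether these records also take up signal of relatives was not tested.

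Along the chromosome the fused-type neighbours therefore gave differences of both signs within a short stretch. From the Flg2 sequence the 2 filaggrin records lay at 59.1 and 72.4 kb, the Hrnr sequences at 111.9 and 112.6 kb, Rptn at 178.0 kb and the 2 sequences of Tchh, for trichohyalin of the inner root sheath, at 225.6 and 228.2 kb. Tchh was taken in as a further fused-type neighbour of Rptn, and Tchhl1, another gene of this type, was too dim to be tested. At 228.2 kb its log2 signal was 1.95, 1.57 and 2.20 on imiquimod arrays, against 6.76, 7.49 and 4.27 on vehicle arrays. Tchh was thus lower on all imiquimod arrays, by -4.27 on the log2 scale (SE 0.82, 95% interval -6.27 to -2.27, limma adjusted p = 0.0176). At 225.6 kb Tchh was not well above background on any imiquimod array, with mean log2 signals of -6.53 there and -0.64 on vehicle arrays, and was at least 24.8-fold higher on vehicle arrays (limma adjusted p = 0.0215 over all probes). That bound compares the vehicle mean with a mean in which each imiquimod value was lifted to the dimmest signal that still counted as well above background on its array.

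**Figure D2:**
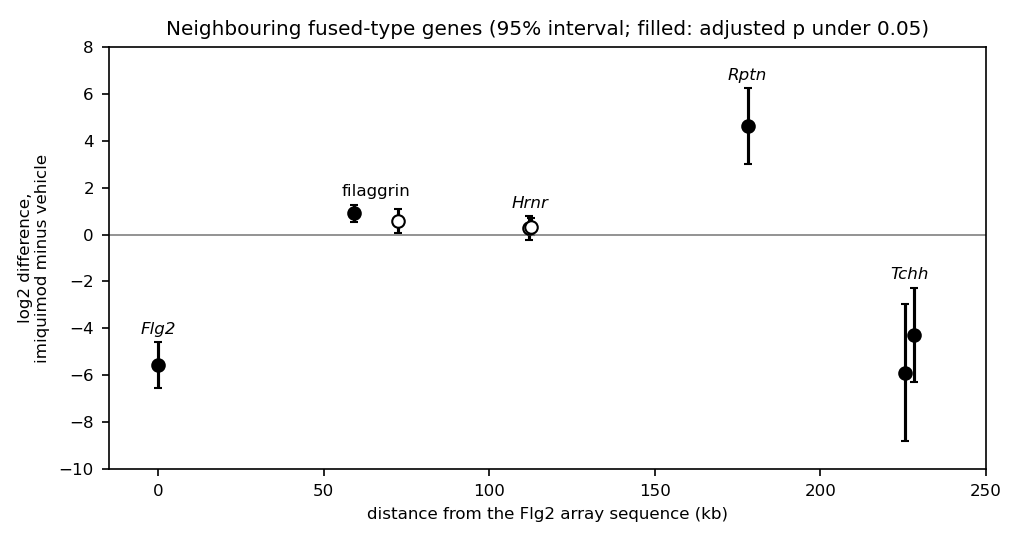
Log2 difference, imiquimod minus vehicle, of each array sequence of the fused-type genes against its distance in kb from the Flg2 sequence; bars are 95% intervals of the limma fit and filled points passed an adjusted p of 0.05. Flg2 at -5.56 and both Tchh sequences lie below 0, and Rptn at 4.62 lies above it. The filaggrin and Hrnr records between Flg2 and Rptn lie at 0.29 to 0.91. The lower Tchh value, at 225.6 kb, is the fitted difference of a sequence not well above background on imiquimod arrays.

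Lor encodes loricrin, the main protein of the mouse envelope by mass. Its log2 signal, at chr3:91884206-91884265 (mm9, minus strand), was 8.20, 8.31 and 8.29 on imiquimod arrays, against 8.29, 8.47 and 8.74 on vehicle arrays. The groups overlapped by a narrow margin and no Lor spot was saturated. Means were 8.27 ± 0.06 on imiquimod arrays and 8.50 ± 0.22 on vehicle arrays (SD, n = 3 each), a difference of -0.23 that did not pass (SE 0.14, 95% interval -0.58 to 0.11, limma adjusted p = 0.273). Lor passed as lower after quantile normalization (-0.53, limma adjusted p = 0.0223) and in the authors' value table (-0.50, limma adjusted p = 0.0269). Those settings gave nearly equal differences in every measured gene, for example 0.19 and 0.19 for Hrnr. They are therefore not separate support for a fall of Lor.

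Ivl encodes involucrin, a glutamine-rich substrate that transglutaminases fix early in envelope assembly. Its log2 signal was 1.65, 2.64 and 2.51 on imiquimod arrays, against 2.07, 2.47 and 2.42 on vehicle arrays. Imiquimod array 1 was the lowest of all 6 and imiquimod array 2 the highest, so that the groups overlapped fully. The means, 2.27 ± 0.54 on imiquimod arrays and 2.32 ± 0.22 on vehicle arrays (SD, n = 3 each), gave a difference of -0.05 (SE 0.29, 95% interval -0.76 to 0.66, limma adjusted p = 0.914). Without imiquimod array 1 the difference was 0.26, and with the slide as a block, which rests on imiquimod array 1, it was -0.67. Neither difference passed.

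Among the enzymes, Tgm3 and Tgm1 encode transglutaminases that cross-link envelope proteins, and Tgm3 also works in the hair follicle. Tgm3 had a log2 signal of 1.15, 1.08 and 0.88 on imiquimod arrays, against -1.79, -0.26 and -1.74 on vehicle arrays. The groups were 1.14 log2 units apart, with vehicle array 2 the nearest. The difference was 2.30 (SE 0.43, 95% interval 1.25 to 3.34, limma adjusted p = 0.0162), or 4.91-fold with an interval of 2.39 to 10.1. Tgm1, at chr14:56319032-56319091 (mm9, minus strand), had 3.14, 3.02 and 2.90 on imiquimod arrays, against 1.95, 2.70 and 2.13 on vehicle arrays. Its groups were separated by only 0.21 log2 units, again from vehicle array 2, and the difference of 0.76 passed narrowly (SE 0.21, 95% interval 0.24 to 1.29, limma adjusted p = 0.0497, 1.70-fold). Tgm1 passed in 5 of its 17 alternative settings, and with the slide as a block its difference was 0.89 (adjusted p = 0.174). Without vehicle array 2 it was 0.98 (limma adjusted p = 0.00957), and without any other single array it did not pass (adjusted p = 0.0970 to 0.149).

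Casp14 encodes caspase-14, a protease of cornifying keratinocytes that takes part in the breakdown of filaggrin. At chr10:78175014-78175073 (mm9, minus strand) its log2 signal was 3.48, 3.84 and 3.68 on imiquimod arrays, against 1.60, 2.64 and 1.11 on vehicle arrays. All imiquimod arrays were higher than all vehicle arrays, by 0.85 log2 units at the nearest point. Means were 3.67 ± 0.18 on imiquimod arrays and 1.78 ± 0.78 on vehicle arrays (SD, n = 3 each), and the difference was 1.89 (SE 0.39, 95% interval 0.93 to 2.84, limma adjusted p = 0.0217, 3.69-fold). Casp14 and Tgm3 each passed in 11 of 17 alternative settings. With the slide as a block Casp14 gave 1.70 (adjusted p = 0.161) and Tgm3 2.41 (adjusted p = 0.107). Leaving out any 1 imiquimod array or vehicle array 1 also left both short of the threshold, with limma adjusted p of 0.0659, 0.0767, 0.0728 and 0.0813 for Casp14 and 0.0628, 0.0596, 0.0550 and 0.0593 for Tgm3.

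Cdsn encodes corneodesmosin, the glycoprotein that holds corneocytes together until they are shed. At chr17:35693832-35693891 (mm9, plus strand) its log2 signal was 3.70, 3.89 and 3.48 on imiquimod arrays, against 3.48, 3.81 and 3.68 on vehicle arrays. These groups overlapped over nearly their whole range, and the difference was 0.03 (SE 0.15, 95% interval -0.35 to 0.41, limma adjusted p = 0.897). The interval excludes a change as large as the fitted difference of any of the 5 genes that passed.

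**Figure D3:**
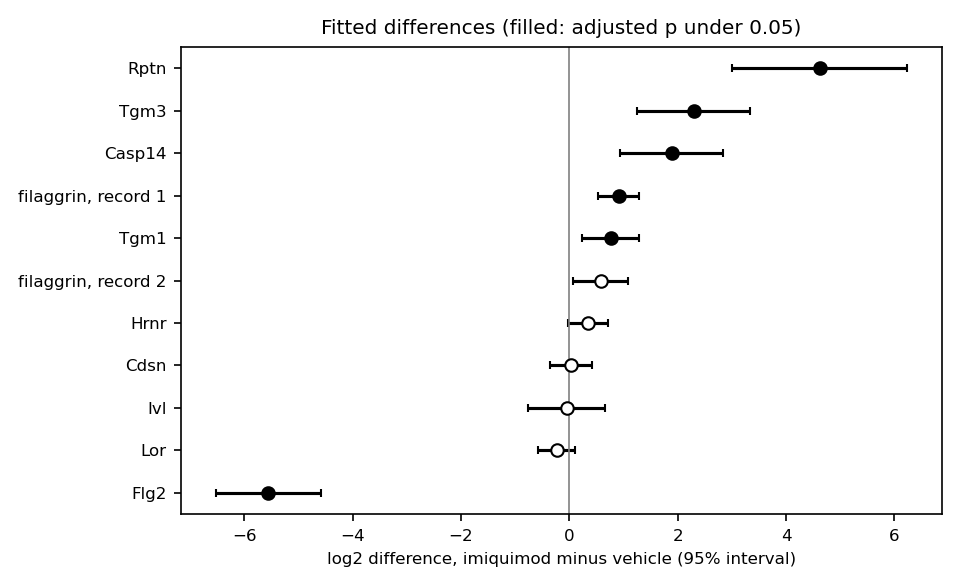
Fitted log2 difference, imiquimod minus vehicle, of the 9 measured genes and of the 2 filaggrin records outside the naming rule (record 1 is ENSMUST00000180308 and record 2 is ENSMUST00000050758), with 95% intervals of the limma fit; filled points passed an adjusted p of 0.05. Rptn at 4.62 and Flg2 at -5.56 stand farthest from 0, and the intervals of Hrnr, Cdsn, Ivl and Lor include 0.

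The spread between replicates was uneven. In 7 of the 9 genes the SD was larger on vehicle arrays than on imiquimod arrays, as it was in 69.6% of all genes tested. Vehicle array 2 lay nearest to the imiquimod arrays in all 5 genes that passed. That array also had the highest summed signal of neutrophil markers among the vehicle arrays, 44.6 times the 75th percentile, against 4.14 on vehicle array 1 and 11.6 on vehicle array 3. Vehicle array 2 was the vehicle array farthest from the imiquimod arrays in the macrophage (85.4), dermal fibroblast (618), inner root sheath (1169) and hair shaft (458) sums. It was the nearest in the sebaceous gland (137), adipocyte (254), skeletal muscle (555) and T cell (1.47) sums. In the interfollicular keratinocyte sum (1089) it lay between the other vehicle arrays. The part of these markers in the results was not tested.

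Genes that process filaggrin were taken as a list of 15, all of them tested. Of these 7 rose, 2 fell and 6 did not pass, while among all genes tested 13.1% were higher and 10.5% were lower. The median difference was 0.36 on the log2 scale, against 0.02 over all genes. Blmh, for bleomycin hydrolase, which completes the breakdown of filaggrin to amino acids, had log2 signals of 4.81, 5.24 and 4.87 on imiquimod arrays, against 2.99, 3.79 and 3.01 on vehicle arrays. It was higher on every imiquimod array, by 1.71 (SE 0.26, limma adjusted p = 0.00900). Ctsd, for the lysosomal protease cathepsin D, rose by 0.60 (SE 0.11, adjusted p = 0.0149), and Pcsk6, for a proprotein convertase, fell by 1.02 (SE 0.15, adjusted p = 0.00847). The other gene that fell was Padi3, for a peptidylarginine deiminase of filaggrin and trichohyalin, named here after its values were seen. Padi3 had -0.16, -1.89 and -0.71 on imiquimod arrays, against 4.39, 5.78 and 0.91 on vehicle arrays, with vehicle array 3 far below the other two (difference -4.61, SE 1.26, adjusted p = 0.0469).

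Other proteins of the envelope and the upper layers moved in both directions. Of 20 listed genes 18 were tested, 7 rose, 3 fell and 8 did not pass, beside 13.1% higher and 10.5% lower over all genes. The median difference was 0.39. Cst6, for the protease inhibitor cystatin M/E, had 5.86, 6.02 and 6.03 on imiquimod arrays, against 8.04, 7.94 and 8.27 on vehicle arrays. Cst6 was thus low on each imiquimod array (difference -2.11, SE 0.13, limma adjusted p = 0.00142). Krt2, which encodes a late keratin of mouse epidermis, was not well above background on any imiquimod array and was at least 6.45-fold higher on vehicle arrays, on the same kind of bound as Tchh (measured mean log2 signals -7.19 on imiquimod arrays and -2.58 on vehicle arrays, limma adjusted p = 0.00142). Csta1, for a stefin A protease inhibitor, rose by 2.03 (SE 0.21, adjusted p = 0.00321), with 8.76, 8.68 and 8.58 on imiquimod arrays, against 6.27, 7.04 and 6.62 on vehicle arrays.

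Transcription factors of terminal differentiation were taken as a list of 24, of which 23 were tested. Of these 3 rose, 2 fell and 18 did not pass, a share close to that of all genes, of which 13.1% were higher and 10.5% lower, and the median difference was -0.24. Gata3, a zinc finger factor of epidermis and hair follicle, had 0.66, 1.26 and 0.97 on imiquimod arrays, against 2.53, 2.49 and 2.37 on vehicle arrays, and fell by 1.50 (SE 0.17, limma adjusted p = 0.00432). Nfe2l2, which drives the antioxidant response, rose by 1.10 (SE 0.15, limma adjusted p = 0.00641).

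**Figure D4:**
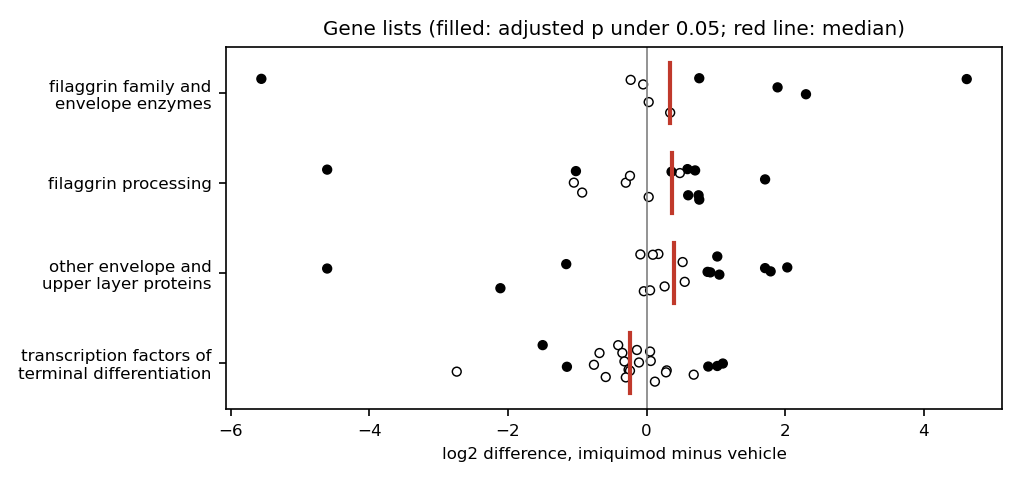
Log2 differences, imiquimod minus vehicle, of the 9 measured genes of the filaggrin family and envelope enzymes and of 3 lists of related genes; each point is 1 gene, filled where the limma adjusted p was under 0.05, and the red line is the list's median. The medians are 0.34, 0.36, 0.39 and -0.24, and each list holds genes that passed in both directions.

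Markers of other structures and cells of the skin moved beside these genes. The shares over all genes tested, 13.1% higher and 10.5% lower, stand beside the counts below. The summed signal of 10 interfollicular keratinocyte markers was 1738 to 1985 times the 75th percentile on imiquimod arrays, against 912 to 1186 on vehicle arrays, with 4 of 10 higher and 1 lower, among them Krt5 of the basal layer, which rose by 0.77 (SE 0.13, limma adjusted p = 0.0123). Krt10 of the layers above it gave 0.52, which did not pass (adjusted p = 0.0537). Named after their values were seen, Krt1, the partner of Krt10, rose by 1.71 (SE 0.26, limma adjusted p = 0.00957), Krt14, the partner of Krt5, rose by 2.25 (SE 0.15, adjusted p = 0.00155), and Krt15, a keratin of basal cells and the hair bulge, was the gene that fell, by 2.12 (SE 0.32, adjusted p = 0.00937). The hair markers were low on imiquimod arrays. All 6 measured inner root sheath markers of 8 listed fell, with sums of 3.58 to 5.38 on imiquimod arrays, against 120 to 1169 on vehicle arrays, and Krt25 and Krt26 were not well above background on any imiquimod array. Of 9 measured hair shaft markers 6 fell, with sums of 1.29 to 1.53 on imiquimod arrays, against 9.96 to 458 on vehicle arrays, and Krt34, Krt85 and Krt86 were not well above background on any imiquimod array. Sebaceous gland markers gave sums of 81.4 to 99.4 on imiquimod arrays, against 137 to 216 on vehicle arrays, with 5 of 7 tested lower.

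Neutrophil markers were higher in 8 of 8 tested, with sums of 788 to 905 on imiquimod arrays, against 4.14 to 44.6 on vehicle arrays. S100a8, a calcium-binding protein of neutrophils that stressed keratinocytes also make, rose by 7.11 (limma adjusted p = 0.00433). The sums mostly follow S100a8 and S100a9, the brightest of these markers. Their log2 signals on imiquimod arrays were 7.90 to 8.47 for S100a8 and 9.08 to 9.14 for S100a9. Macrophage markers were higher in 5 of 7 (sums 303 to 363 on imiquimod arrays, against 85.4 to 184 on vehicle arrays), and dermal fibroblast markers in 6 of 8 (1037 to 1170 on imiquimod arrays, against 618 to 872 on vehicle arrays). Adipocyte markers had 0 of 8 higher and 1 lower (245 to 330 on imiquimod arrays, against 254 to 553 on vehicle arrays). Skeletal muscle markers also had 0 of 8 higher and 1 lower (462 to 786 on imiquimod arrays, against 555 to 1354 on vehicle arrays). T cell markers had 0 of 6 higher and 1 lower (0.806 to 1.81 on imiquimod arrays, against 1.47 to 2.43 on vehicle arrays). Among all genes tested 13.1% were higher and 10.5% lower, and 1 lower gene in lists this short is near that share. The part of these cell types in the differences of Flg2, Rptn, Tgm3, Casp14 and Tgm1 was not tested.

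For each measured gene the named gene with the most similar values was sought among 14882 others, by Pearson correlation over the 6 arrays, which share 2 treatments, so that any gene with the same split scores high. Flg2 was most like Cyp3a25, a cytochrome P450 gene, at 0.9992, and Cyp3a25 differed by -6.53 on the log2 scale (SE 0.37, limma adjusted p = 0.00127). Casp14 was most like Rpsa (0.9994), Tgm3 like Dync1i2 (0.9989), Rptn like Rpl8 (0.9988) and Tgm1 like Tmem251 (0.9979). Their own log2 differences were smaller than those of the members they matched. Rpsa (0.52, limma adjusted p = 0.0425) and Rpl8 (0.46, limma adjusted p = 0.0311) passed. Dync1i2 (0.30, limma adjusted p = 0.0857) and Tmem251 (0.38, limma adjusted p = 0.0902) did not. The genes that did not pass had lower best values, 0.9938 for Hrnr with Rhbdd2, 0.9907 for Lor with Ino80b, 0.9819 for Cdsn with Scnn1a and 0.9600 for Ivl with Fam178b.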

How the data were processed

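Total RNA of whole skin was labelled with Cy3 and hybridised to single-colour arrays. The deposited scanner files hold spot intensity on a linear scale, background-subtracted per the file headers by Agilent Feature Extraction 10.7.3.1 (version 9.1 per the submitters' processing notes). The authors also deposited a table of log2 values, with a median of 7.05 in every column and a slope of 0.973 to 1.01 against the log2 scanner signal. How it was normalized is not given in the sources used here.

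Control spots and 322 spots with outlier flags were left out, which left 41115 of 41174 probes. Values were log2 processed signal minus the array's 75th percentile. A probe entered the test if 3 or more of the 6 arrays had it well above background, and each gene took its tested probe of highest mean. The 3 arrays of each group entered a limma fit (version 3.58.1, R 4.3.3, no covariates, Benjamini-Hochberg adjustment), checked on simulated data. Levels of different probes were not compared, except to take a gene's brightest probe and in the marker sums. Those sums add the linear signals of different probes, so the brightest markers weigh most.

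The members and lists were chosen with earlier results of these data known. Named genes were all members, the 3 of smallest p in each pathway list, the 2 of highest mean in each marker list and the closest gene to each member, and some of these are not reported here. Markers not well above background and Tchh were named besides. Promoter windows came from RefSeq (GRCm38.p6) and matched all 10 member genes. Alternatives were quantile normalization, normexp with an offset of 50, tests of all probes or of those bright on all 6 arrays, probes averaged per gene, limma with trend and robust estimation, slide, replicate block, the value table, each array left out and, chosen after seeing the data, both vehicle arrays marked for evaluation left out. No sign that replicate numbers pair the samples was seen, as deviations of same-numbered arrays correlated at -0.0872, 0.0674 and 0.0854 across genes. Differently numbered arrays were not set beside them, so pairing was not excluded.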

Additional observations from a re-analysis of the deposited data

How the results depend on the processing

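With the slide as a block, 1058 genes were called in place of 4194, 0 of the 9 measured members were higher in place of 4, and Flg2 remained the 1 lower. Within slide 1, which leaves 1 imiquimod array, 8 genes, 0 higher members and 0 lower members were called. Leaving out each array in turn gave 1691 to 4675 genes, 1 to 4 higher members and 1 lower member. Quantile normalization and the value table each gave 2 lower members, Flg2 and Lor, and nearly equal differences in every measured gene. The replicate block gave 2205 genes, and Tgm1 lost its call there (limma adjusted p = 0.0896), though no sign that the numbers pair the samples was seen. Signs turned only in genes that never passed. Ivl gave 0.26 without imiquimod array 1, 0.02 without vehicle array 2, 0.00 without vehicle array 3 and 0.20 without both vehicle arrays marked for evaluation, with -0.24 to 0.26 over single arrays left out, and Cdsn gave -0.04 under quantile normalization, -0.04 in the value table, -0.07 without imiquimod array 2 and -0.06 without vehicle array 1, with -0.07 to 0.14 over single arrays left out. Over 17 alternatives Flg2 ranged from -5.98 to -5.19 and passed in 16, and Rptn ranged from 4.16 to 5.40 and passed in 15. With the slide as a block the difference rested on imiquimod array 1 against the vehicle arrays, since slide 2 held imiquimod arrays only. The SE was larger in that fit, 0.61 against 0.40 for Flg2 and 1.02 against 0.66 for Rptn. A slide effect was not tested. Beyond this and the fewer arrays in the slide 1 and left-out settings, the cause of these changes was not tested. The 3 arrays a group limit the precision, and no member was near background.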
